A study of Mus musculus with 6 samples.

Results

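Id1, Id2, Id3 and Id4, the inhibitor of DNA binding genes, and Atoh8 were compared between the calvaria of Tmem53-/- mice and those of their Tmem53+/- siblings. They were taken by symbol from the deposited RNA-seq table and make up 5 of its 32350 entries, and all 5 were among the 13535 entries that carried a symbol and averaged 0.5 FPKM or more over the 6 libraries (FPKM scales sequenced fragments to transcript length and to the mapped total). The heterozygous group held 3 pups and the mutant group 3 pups, all of strain B6N and at postnatal day 3, each giving 1 library. No wild-type library was analysed here, so every control carried 1 disrupted copy of Tmem53. Both genotypes come from mice edited with CRISPR/Cas9, in which founders with frame-shift mutations gave the lines. The study names the line Tmem53 1bin/1bin as the one it went on to examine, and the labels of the libraries give the genotype alone.

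Bone morphogenetic proteins (BMPs) bind type I and type II receptors, which phosphorylate SMAD1, SMAD5 and SMAD9; these enter the nucleus with SMAD4 and bind GC-rich elements in target genes. The Id genes are among the most direct of these targets. Id proteins carry a helix-loop-helix domain but no DNA-binding basic region, so they pair with E proteins and keep them from forming active dimers with tissue-specific basic helix-loop-helix (bHLH) factors. Atoh8 is itself a bHLH factor and a BMP target in endothelial and other cells. In the skeleton, Id genes are known as early BMP-induced genes of osteoblast precursors. The study asked whether loss of TMEM53, a nuclear envelope protein, raises BMP-SMAD signaling in calvaria, and these genes are a readout of that pathway.

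Heterozygous replicate 2 and mutant replicate 3 stood apart from their groups. Across genes, the correlation of log2 FPKM with the other libraries of the group was 0.956 to 0.957 for the former and 0.952 to 0.959 for the latter, against 0.991 and 0.982 between the remaining pairs, and both listed the collagen gene Col1a1 at 0 where the other 4 libraries had 2614 to 4090 FPKM. By Xist, expressed from the inactive X chromosome, the first and the third heterozygous pups were females (102 FPKM each), while no other library, mutants included, exceeded 0.0430 FPKM, so sex and genotype were partly aligned. Heterozygous replicate 2 was the only control that was not female by Xist. In any fit that leaves it out, sex and genotype are fully aligned and cannot be told apart. Tmem53 transcript was not lowered but higher in the mutants. It was at 6.92 ± 0.469 FPKM in the heterozygous and 11.6 ± 2.04 FPKM in the mutant group (SD, n = 3 each, log2 fold change 0.70, limma adjusted p = 0.0400). A transcript level does not check a frame-shift allele.

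Of the 5 genes, Id1 alone was separated by genotype. It was higher in every mutant than in every heterozygous library, 1.91-fold in mean FPKM, while Id2, Id3, Id4 and Atoh8 overlapped between the genotypes. None of the 5 passed an adjusted p of 0.05 in limma, fitted on log2(FPKM + 0.5) over all 13535 entries with Benjamini-Hochberg adjustment, and 1 of the 5 (Id1) had an unadjusted p under 0.05. In the whole table, 7.06% of entries were called (3.44% higher and 3.63% lower in the mutants), 27.9% had an unadjusted p under 0.05 and 37.2% had groups that did not overlap (21.2% with the mutants higher and 16% with them lower), so 1 of 5 lies near or under the shares for unadjusted p and for groups that do not overlap. In bulk tissue, more cells that express a gene and more of its RNA per cell cannot be told apart.

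Id1 (chr2:152562009-152563146, NCBI build37.2) restrains differentiation and supports proliferation in many progenitor cells. Its FPKM was 23.2, 29.3 and 21.2 in heterozygous replicates 1, 2 and 3 and 63.1, 41.8 and 36.0 in mutant replicates 1, 2 and 3. The lowest mutant library therefore lay above the highest heterozygous one, and mutant replicate 1 stood above the other mutants. The means were 24.6 ± 4.20 (SD, n = 3) and 47.0 ± 14.3 (SD, n = 3). The log2 fold change was 0.89 ± 0.23 (SE), with a 95% confidence interval of 0.34 to 1.44. Its unadjusted limma p was 0.00704 and its adjusted p 0.0662, and 10.6% of the entries tested had a lower p. The exact two-sided permutation test gave p = 0.1, the smallest that 3 against 3 allows. Without heterozygous replicate 2, which had the highest Id1 of its group, the log2 fold change was 1.02 and limma's adjusted p 0.0494. Only controls that were female by Xist remained in that fit, so sex and genotype cannot be told apart in it.

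Id2 (chr12:25778663-25780957) acts in osteoblast, fat and immune cell differentiation. Its FPKM was 47.1, 32.7 and 46.4 in the heterozygous libraries and 35.2, 35.7 and 33.9 in the mutants. Heterozygous replicate 2 lay below all 3 mutants and the other 2 heterozygous libraries lay above them, so the groups overlapped through that 1 library. The values split by sex as read from Xist, with the females at 47.1 and 46.4 FPKM and all other libraries at 32.7 to 35.7 FPKM. The means were 42.1 ± 8.08 and 34.9 ± 0.893 (SD, n = 3 each), and the log2 difference was −0.25 with a 95% confidence interval of −0.61 to 0.12 and an adjusted limma p of 0.338. The exact permutation p was 0.4. Without heterozygous replicate 2 the log2 fold change was −0.42 and the adjusted limma p 0.0182, a call in the direction opposite to Id1. That fit sets female controls against mutants that were not female by Xist, so sex and genotype cannot be told apart in it.

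Id3 (chr4:135699736-135701307), which overlaps with Id1 in function and expression, was the most abundant of the 5 and lay above 96.5% of all entries tested by mean level. Its FPKM was 182, 147 and 171 in the heterozygous libraries and 150, 124 and 203 in the mutants. Mutant replicate 3 was the highest and mutant replicate 2 the lowest of all 6. The means were 167 ± 17.7 and 159 ± 40.2 (SD, n = 3 each), and the log2 fold change was −0.09 with a 95% confidence interval of −0.56 to 0.38 and an adjusted limma p of 0.807. Id3 lies 18.8 Mb from Tmem53 on the same chromosome.

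Id4, known for roles in neural and osteoblast differentiation, had FPKM of 11.9, 11.6 and 12.6 in the heterozygous libraries and 14.9, 7.63 and 14.5 in the mutants. The heterozygous libraries lay within 1.08-fold of each other, whereas the mutants differed by 1.95-fold, with replicate 2 low. The means were 12.03 ± 0.469 and 12.4 ± 4.09 (SD, n = 3 each), and the log2 fold change was −0.02 (95% confidence interval −0.62 to 0.58, limma adjusted p = 0.967). The table places Id4 in a merged locus (chr13:48139599-48361398) together with A330033J07Rik, which was listed at 0.0387 to 0.119 FPKM, so the coordinates are not those of Id4 alone.

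Atoh8 (chr6:72156170-72185571) had FPKM of 11.2, 7.64 and 11.9 in the heterozygous libraries and 14.7, 11.8 and 8.44 in the mutants. Only mutant replicate 1 lay above the heterozygous range. The means were 10.2 ± 2.28 and 11.7 ± 3.15 (SD, n = 3 each), and the log2 fold change was 0.17 (95% confidence interval −0.42 to 0.75, limma adjusted p = 0.697). In fold terms the intervals reached from 1.27-fold to 2.72-fold higher for Id1, from 0.654 to 1.09 times the heterozygous level for Id2, from 0.678 to 1.31 times for Id3, from 0.649 to 1.499 times for Id4 and from 0.748 to 1.69 times for Atoh8. A change of 1.5-fold in either direction was thus within or at the edge of the interval for Id4, a 1.5-fold fall within that for Id2 and a 1.5-fold rise within that for Atoh8.

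With both libraries that stood apart left out, Id1 was 1.19 higher on the log2 scale (limma adjusted p = 0.0142) and Id2 stood at −0.39 (limma adjusted p = 0.0108), so that 2 of the 5 genes were called, among 3712 calls in all. Id3 stood at −0.36, Id4 at −0.18 and Atoh8 at 0.18, none called (limma adjusted p = 0.0618, 0.674 and 0.302). The controls of this fit were all female by Xist and its mutants were not, so genotype and sex cannot be told apart in it. With sex as a covariate Id1 was 0.63 higher (limma adjusted p = 0.231) and Id2 turned to 0.09 (limma adjusted p = 0.440).

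**Figure D1:**
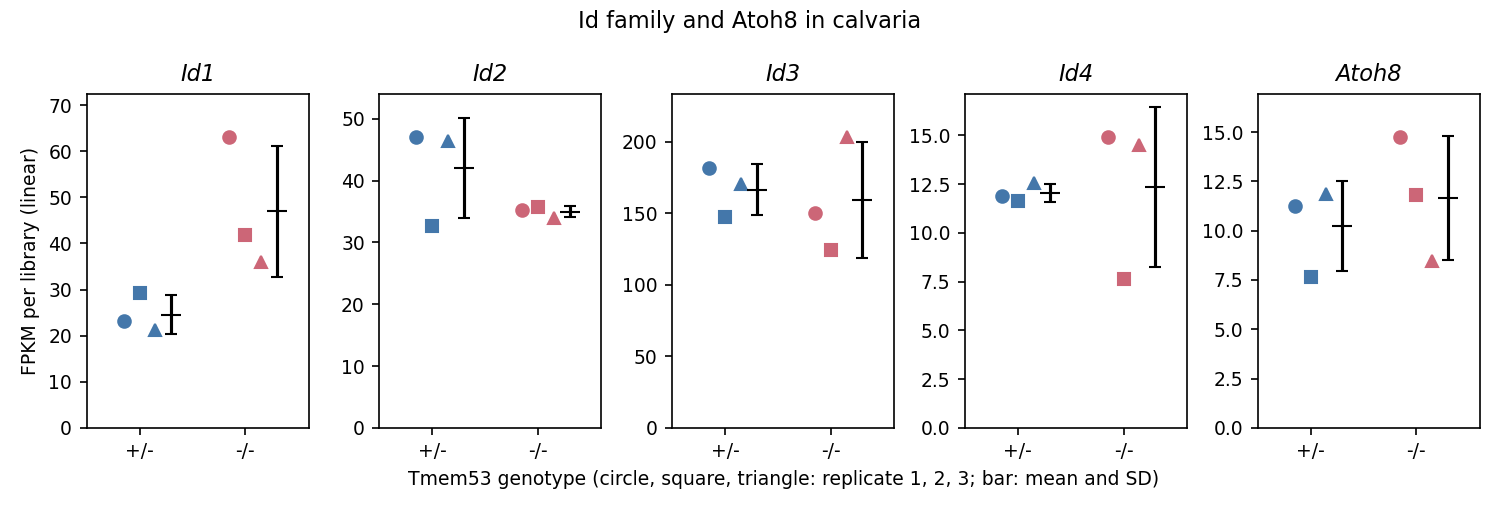
FPKM (linear axis from 0, a scale of its own for each gene) of Id1, Id2, Id3, Id4 and Atoh8 in the 3 heterozygous (blue) and 3 mutant (red) libraries, with the symbol giving the replicate number and the bar the mean and SD. The Id1 points of the mutants (36.0 to 63.1) all lie above the heterozygous points (21.2 to 29.3), and the other 4 genes overlap.

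In heterozygous calvaria the order of levels in FPKM was Id3, Id2, Id1, Id4 and Atoh8, and in every heterozygous library each gene lay above the next. The ranges of Id4 and Atoh8 overlapped and those of the other neighbours did not. In mutant calvaria the order was Id3, Id1, Id2, with Id4 and Atoh8 again overlapping at the bottom. Id1 and Id2 thus had exchanged places, Id2 lying 1.71-fold above Id1 by the means in the heterozygous group and Id1 1.34-fold above Id2 in the mutants.

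Because a ratio within a library does not depend on how the libraries were scaled, the 10 ratios between the 5 genes were also compared, each on FPKM + 0.5. The ratio of Id1 to Id2 was 0.499, 0.896 and 0.463 in the heterozygous libraries and 1.78, 1.17 and 1.06 in the mutants, so Id2 exceeded Id1 in all 3 heterozygous pups and Id1 exceeded Id2 in all 3 mutants. The difference was 1.14 on the log2 scale (exact permutation p = 0.1, the smallest possible, and 0.4 after adjustment over the 10 ratios). It was the only 1 of the 10 ratios whose groups did not overlap. The ratio of Id1 to Id3 was 0.130, 0.202 and 0.127 in the heterozygous libraries and 0.421, 0.339 and 0.179 in the mutants, where mutant replicate 3 fell below heterozygous replicate 2. The 6 ratios that leave out Id1 all overlapped.

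**Figure D2:**
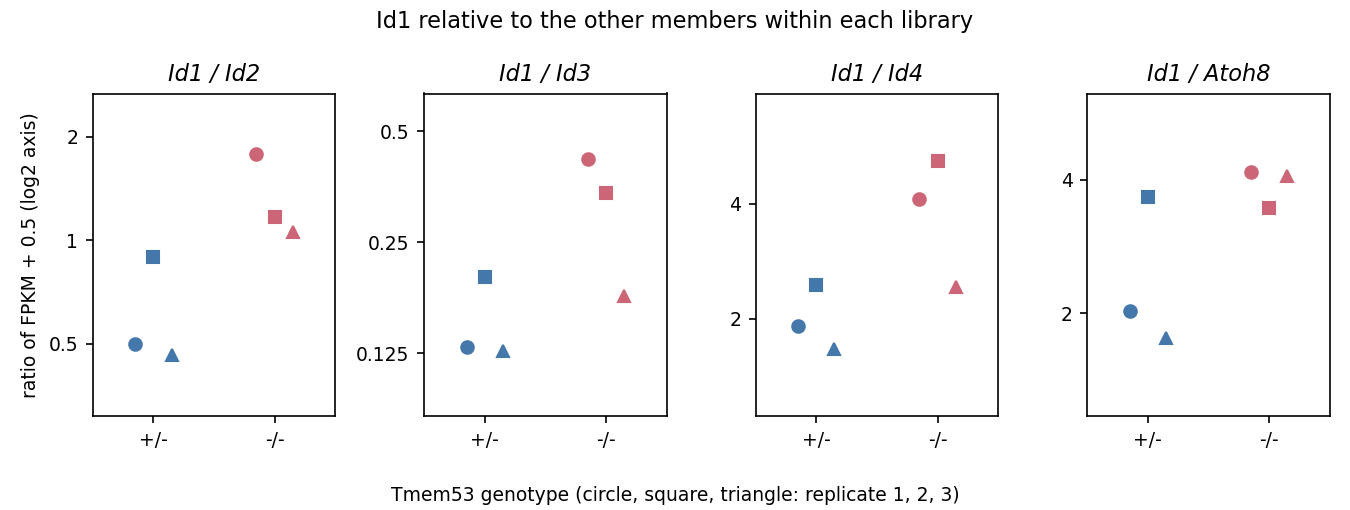
Ratio of Id1 to Id2, Id3, Id4 and Atoh8 within each library (FPKM + 0.5, log2 axis with its own range in each panel), heterozygous in blue and mutant in red, with the symbol giving the replicate number. Only the ratio to Id2 separates the groups, at 0.463 to 0.896 against 1.06 to 1.78.

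The summed level of Id1 to Id4 was 264, 221 and 251 FPKM in the heterozygous libraries and 264, 209 and 288 FPKM in the mutants, which overlapped. Id3 made up 66.7% to 68.9% of that sum in the heterozygous libraries and 57.1%, 59.4% and 70.7% in the mutants. Id1 made up 8.79%, 13.3% and 8.46% in the heterozygous libraries and 23.9%, 19.97% and 12.5% in the mutants. The makeup of the sum shifted toward Id1 in mutant replicates 1 and 2, while the Id1 share of mutant replicate 3 lay inside the heterozygous range.

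Among RefSeq promoter windows, 4 of the 5 genes were found, and Id1 was not matched. The windows of Id2 and Id4 are shown because the 250 bases before the gene start of each hold the palindrome GGCGCC (the same on both strands), a GC-rich sequence of the kind that BMP-regulated SMADs bind, and that of Id3 because it is the most abundant of the 5 and has no such match. They are given 5′ to 3′ on the gene's strand in GRCm38.p6, which is a later build than that of the expression table, with GGCGCC in capitals: chr12:25096093-25096342 on the minus strand for Id2, chr4:136143572-136143821 on the plus strand for Id3 and chr13:48260866-48261115 on the plus strand for Id4.
Id2: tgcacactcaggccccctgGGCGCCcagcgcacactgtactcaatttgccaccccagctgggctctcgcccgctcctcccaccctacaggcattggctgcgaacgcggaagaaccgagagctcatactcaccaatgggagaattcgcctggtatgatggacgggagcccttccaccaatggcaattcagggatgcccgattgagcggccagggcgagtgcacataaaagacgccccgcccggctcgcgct
Id3: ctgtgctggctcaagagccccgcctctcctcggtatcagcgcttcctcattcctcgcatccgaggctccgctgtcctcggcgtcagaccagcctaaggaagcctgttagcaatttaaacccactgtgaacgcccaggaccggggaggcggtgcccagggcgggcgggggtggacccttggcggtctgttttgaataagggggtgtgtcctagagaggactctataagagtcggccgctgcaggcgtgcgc
Id4: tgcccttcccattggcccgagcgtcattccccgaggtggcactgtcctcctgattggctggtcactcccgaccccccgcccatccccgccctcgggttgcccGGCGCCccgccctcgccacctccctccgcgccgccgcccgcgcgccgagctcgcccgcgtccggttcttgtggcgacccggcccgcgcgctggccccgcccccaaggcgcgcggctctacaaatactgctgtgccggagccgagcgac
The match starts 231 bases before the gene start in Id2 and 148 bases before it in Id4, and the window of Atoh8 had none. Of 32851 windows of 250 bases in the same table, 9.59% held GGCGCC. The windows are 62.8% (Id2), 62.8% (Id3), 75.6% (Id4) and 63.2% (Atoh8) G or C. GTCT, the short SMAD element, searched on both strands, occurred 1 time in the window of Id2 and 2 times in that of Id3 and did not occur in those of Id4 and Atoh8, where 82.9% of all windows held it.

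E proteins, the main partners of Id proteins, were not called. Tcf3, Tcf4 and Tcf12 encode E2A, E2-2 and HEB. Tcf4 was 21.2, 18.1 and 20.5 FPKM in the heterozygous libraries and 25.4, 26.5 and 38.6 in the mutants (log2 fold change 0.56, limma adjusted p = 0.0993). Tcf12 was 28.6, 27.4 and 27.5 FPKM against 31.2, 32.9 and 37.6 (log2 fold change 0.28, limma adjusted p = 0.125), and Tcf3 was 24.8, 30.4 and 25.0 FPKM against 29.8, 28.1 and 31.1 (log2 fold change 0.15, limma adjusted p = 0.403). The groups of Tcf4 and Tcf12 did not overlap and those of Tcf3 did. Of all entries, 37.2% had groups that did not overlap, 21.2% with the mutants higher. Summed, the E proteins were at 73.0 to 76.0 FPKM in the heterozygous libraries and 86.4 to 107 FPKM in the mutants, and the ratio of summed Id1 to Id4 to summed E proteins was 3.54, 2.91 and 3.44 against 3.05, 2.39 and 2.68, which overlapped.

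Of 31 tissue-specific bHLH factors looked up, 5 were expressed enough to be tested and 0 were called. Twist1, an E protein partner that holds back osteoblast maturation in the cranial sutures, was 46.7, 69.4 and 43.2 FPKM in the heterozygous libraries and 43.5, 48.1 and 64.5 in the mutants (log2 fold change −0.02, limma adjusted p = 0.969). Of 9 bHLH repressors, a list of Hes and Hey genes with Bhlhe40 and Bhlhe41, 6 were tested and 0 called. Notch and in part BMP signals induce the Hes and Hey genes. Hes1 was 14.7, 23.0 and 13.9 FPKM against 25.3, 27.4 and 36.6 (log2 fold change 0.79, limma adjusted p = 0.0851). Hey1, singled out after its values were seen, was 1.19, 1.68 and 0.726 FPKM against 3.12, 2.61 and 5.97 (log2 fold change 1.34, limma adjusted p = 0.0622). Both had groups that did not overlap, as did 21.2% of all entries with the mutants higher. The median log2 fold change was 0.28 over the E proteins and −0.38 over the tissue bHLH factors, beside 0.05 over all entries tested. It was 0.40 over the repressor list, in which Bhlhe40 and Bhlhe41 stood at −0.40 and −0.58 (limma adjusted p = 0.515 and 0.216). In these lists limma found unadjusted p under 0.05 for 2 E proteins, 1 tissue bHLH factor and 2 Hes and Hey factors, beside 27.9% of all entries tested.

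Other BMP-SMAD targets behaved unequally. Of 23 tested entries for 22 genes, 4 were called higher and 1 lower in the mutants, with a median log2 fold change of 0.39. Over all entries tested, 3.44% were called higher and 3.63% lower. Limma's unadjusted p was under 0.05 for 10 of the 23, beside 27.9% of all entries. The 4 that rose were osteoblast regulators and a feedback antagonist. Runx2, the master regulator of osteoblasts, was 7.04, 7.01 and 7.42 FPKM in the heterozygous libraries and 12.3, 12.6 and 16.3 in the mutants (log2 fold change 0.88, limma adjusted p = 0.0219). A further entry under the same symbol, at 0.364 to 1.04 FPKM, was not called. Sp7, encoding osterix, was 5.15, 4.16 and 4.24 FPKM against 11.7, 10.6 and 19.7 (log2 fold change 1.48, limma adjusted p = 0.0255). Dlx5, a homeobox activator of Runx2, was 6.92, 8.004 and 7.05 FPKM against 14.7, 11.3 and 19.98 (log2 fold change 0.98, limma adjusted p = 0.0427). All 3 genes separated the groups, as did 21.2% of all entries with the mutants higher. Each of the 3 was highest in mutant replicate 3, the replicate with the lowest Id1 among the mutants.

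Nog, which encodes the BMP antagonist noggin, was 1.56, 3.61 and 1.80 FPKM in the heterozygous libraries and 19.6, 8.87 and 7.43 in the mutants (log2 fold change 2.09, limma adjusted p = 0.0397). Its libraries stood in the same order as those of Id1 among the mutants. An order of 3 libraries is easily shared by chance, and the match was not tested. Dlx3, another homeobox gene of osteoblasts, was 0.0554, 0.0213 and 0.110 FPKM against 0.213, 0.732 and 3.03, 1.38 higher on the log2 scale and not called (limma adjusted p = 0.171). Its mutant values differed far more among themselves than those of any Id gene. Junb, an AP-1 subunit that BMP and many other stimuli induce, fell from 71.1, 48.9 and 63.9 FPKM to 24.9, 29.3 and 38.5 (log2 fold change −0.98, limma adjusted p = 0.0428). The inhibitory Smad6 and Smad7, which like the Id genes are direct BMP-SMAD targets, had log2 fold changes of 0.20 and 0.01 (limma adjusted p = 0.567 and 0.982).

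**Figure D3:**
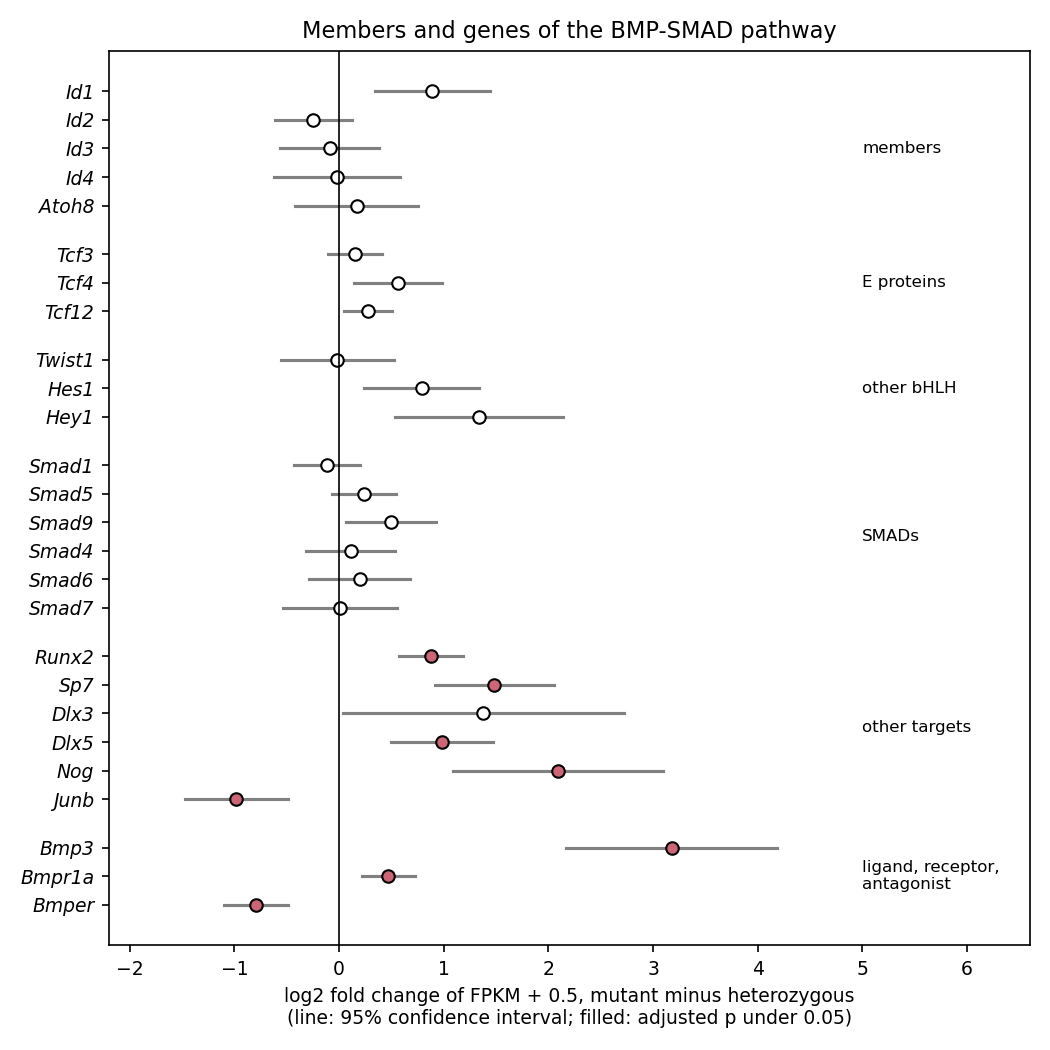
Log2 fold change of FPKM + 0.5, mutant minus heterozygous, with its 95% confidence interval, for the Id genes and Atoh8 and for genes of the BMP-SMAD pathway named in the text (3 libraries per group, filled where limma's adjusted p is under 0.05). The Id1 interval (0.34 to 1.44) lies above 0 with an open symbol, and the intervals of Id2, Id3, Id4 and Atoh8 cover 0.

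Upstream of these targets, 7 of 11 BMP ligands were tested and 1 was called. Of all entries tested 7.06% were called, the share beside which the counts here stand. Bmp3, a ligand that opposes osteogenic BMPs, rose from 0.0763, 0.0528 and 0.123 FPKM to 3.73, 2.82 and 9.98 (log2 fold change 3.18, limma adjusted p = 0.0183). Of 9 tested receptors, Bmpr1a, a type I receptor, rose from 22.6, 26.4 and 22.3 FPKM to 34.3, 30.4 and 34.5 (log2 fold change 0.47, limma adjusted p = 0.0495). Of 12 tested antagonists, Nog was called higher and Bmper, a secreted modulator of BMPs, lower, at 38.4, 51.1 and 42.8 FPKM against 24.0, 23.9 and 27.2 (log2 fold change −0.80, limma adjusted p = 0.0258). A further list held 15 entries for SMADs, including Smad6 and Smad7, for the SMAD regulators Smurf1 and Smurf2 and for corepressors. Of these only Tob1, which represses SMAD-driven transcription in osteoblasts, was called, at 12.5, 11.9 and 12.4 FPKM against 28.8, 24.3 and 19.1 (log2 fold change 0.92, limma adjusted p = 0.0269). Smad1, Smad5, Smad9 and Smad4 had log2 fold changes of −0.11, 0.24, 0.50 and 0.11 with adjusted limma p of 0.608, 0.270, 0.136 and 0.727. Median log2 fold changes were 0.65 for ligands, −0.15 for receptors, 0.12 for antagonists and 0.11 for the list of SMADs, Smurf1, Smurf2 and corepressors.

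Of 21 immediate-early genes, which growth factors induce within minutes, 0 were called higher and 4 lower, beside 3.44% and 3.63% of all entries tested. Fos fell from 20.8, 12.8 and 17.6 FPKM to 4.14, 3.83 and 5.20 (log2 fold change −1.83, limma adjusted p = 0.0109), with Junb, Fosl2 (−0.62, adjusted p = 0.0463) and Zfp36 (−0.58, adjusted p = 0.0340) also called. The median over the list was −0.07. Of 6 CDK inhibitor genes that Id proteins are known to restrain through E proteins, 0 were called and the median was 0.23. Cdkn1c, given after its values were seen, was 9.53, 6.46 and 7.31 FPKM against 36.5, 23.3 and 9.28 (limma adjusted p = 0.130), with the mutants in the same order as for Id1. So short an order is easily shared by chance. Over the 136 distinct genes of these lists, 99 entries were tested and 7 were called higher and 5 lower, beside 3.44% and 3.63% of all entries tested. Each of these 12 calls was lost when at least 1 single library was left out. All 12 stood without the 2 libraries that stood apart, where the lists held 32 calls, and 8 of the 12 no longer passed with sex as a covariate. Without those 2 libraries, genotype and sex cannot be told apart.

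The genes whose pattern over the 6 libraries was most like each member were found by the root mean square difference of log2(FPKM + 0.5) after centring, among 9062 entries that averaged 5 FPKM or more and were above 0 in every library. For Id1 they were Cdon (0.0487), Papss2 (0.101) and Foxc1 (0.105). Cdon, which encodes a cell-surface coreceptor for hedgehog ligands, was 13.1, 16.7 and 12.6 FPKM in the heterozygous libraries and 39.4, 23.6 and 21.2 in the mutants. As for Id1, heterozygous replicate 2 was the highest of its group and mutant replicate 1 the highest of all. Papss2 makes the sulfate donor used on cartilage proteoglycans, and Foxc1 is a forkhead factor needed for calvarial bone. For Id2 they were Trap1 (0.0283), Snap23 (0.0354) and Oaz1 (0.0356), for Id3 Fndc3a (0.0756), Nid1 (0.0765) and Mvd (0.0793), for Id4 Itga1 (0.147), Fosl1 (0.147) and Fez1 (0.169), and for Atoh8 Mettl7a1 (0.0342), Cdk5rap1 (0.0694) and Cdkn2c (0.0759). Among the 5 members the same distance was smallest between Id3 and Id4 (0.212) and largest between Id1 and Id2 (0.684). These are descriptions over 6 libraries that share 2 genotypes.

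The genes beside each member in the table were also examined, within 150 kb on either side, a set taken by position but described after its values were seen. Of 6 tested neighbours of Id1, 2 were called higher, against 3.44% of all entries. Cox4i2, an isoform of a cytochrome c oxidase subunit 16.8 kb away, was 0.550, 0.147 and 0.288 FPKM in the heterozygous libraries and 8.51, 9.72 and 11.4 in the mutants (log2 fold change 3.67, limma adjusted p = 0.00335). H13, encoding signal peptide peptidase 27.6 kb away, was 77.2, 52.3 and 62.7 FPKM against 117, 105 and 118 (log2 fold change 0.83, limma adjusted p = 0.0340). Cox4i2 passed under all 18 alternative settings, and H13 did not under 6 of them. Bcl2l1, 43.2 kb away, overlapped between the groups (0.05 on the log2 scale). In contrast to Id1, Cox4i2 and H13 had their mutant libraries close together. Of 2 tested neighbours of Id2, Kidins220, 30.4 kb away, was called lower (log2 fold change −0.43, limma adjusted p = 0.0401), a call lost under 8 settings. Of 6 tested neighbours of Id3 and 8 of Atoh8, 0 were called by limma, with unadjusted p under 0.05 for 4 and 0 of them (27.9% of all entries), and Id4 had none tested.

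Marker genes of the calvarial cell types were set beside the Id values. All 13 osteoblast, 14 cartilage and 10 suture mesenchyme markers reached a mean of 0.5 FPKM. Of 14 osteoblast entries 8 were called higher and 0 lower (median log2 fold change 1.72), and of 10 suture mesenchyme markers 3 were called higher and 0 lower (median 0.17). Over all entries tested, 3.44% were called higher and 3.63% lower, which holds as the background for every marker count here. The summed cartilage markers were 141 to 150 FPKM in the heterozygous libraries and 6030, 3219 and 792 in mutant replicates 1, 2 and 3, with 12 of 14 called higher, and this is the order of Id1 among the mutants. Sharing an order of 3 libraries is easy by chance, and the match was not tested. Macrophage markers summed to 1047 to 1230 FPKM in the heterozygous libraries and to 564, 876 and 86.7 in the mutants, with 0 of 8 called by limma and 3 at an unadjusted p under 0.05. Their median log2 fold change was −1.73. Groups did not overlap for 7 of the 8, beside 37.2% of all entries. Osteoclast markers summed to 772 to 4092 FPKM against 249 to 373, with 7 of 10 called lower. The part of these cell types in the Id1 difference was not tested. Of 14 endothelial markers, 3 averaged 0.5 FPKM or more, the summed level was 5.67 to 6.90 FPKM in the heterozygous libraries against 6.64 to 7.81 FPKM in the mutants, and Pecam1 and Cdh5 were listed at no more than 0.130 and 0.0880 FPKM. Among the 3 that were tested, Sox18 alone was called, higher at 0.109 to 0.204 FPKM against 0.580 to 0.984 FPKM (limma adjusted p = 0.0376). The BMP receptor genes of endothelium differed in direction, and neither was called. Eng was higher, at 23.0, 39.9 and 23.9 FPKM against 50.4, 40.2 and 40.8 (limma adjusted p = 0.136). Acvrl1 was lower, at 13.6, 16.1 and 11.8 FPKM against 8.002, 8.32 and 10.4 (limma adjusted p = 0.0628). Of 6 red cell markers, 0 averaged 0.5 FPKM, 4 were listed at 0 in every library and the highest value was 0.0855 FPKM. Since Col1a1 is listed at 0 in the 2 libraries named above, a listed 0 in this table does not show that a transcript or a cell type was absent.

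Under 18 alternative settings, the log2 fold change of Id1 ran from 0.63 to 1.19 and was positive in each, with adjusted limma p from 0.00425 to 0.231, and it was called in 3 of them. Id2 was called lower in the same 3, and it was negative in all but the fit with sex. The settings with calls include the fits without heterozygous replicate 2, where sex and genotype cannot be told apart. No alternative called Id3, Id4 or Atoh8, and each of these 3 changed sign in at least 1.

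**Figure D4:**
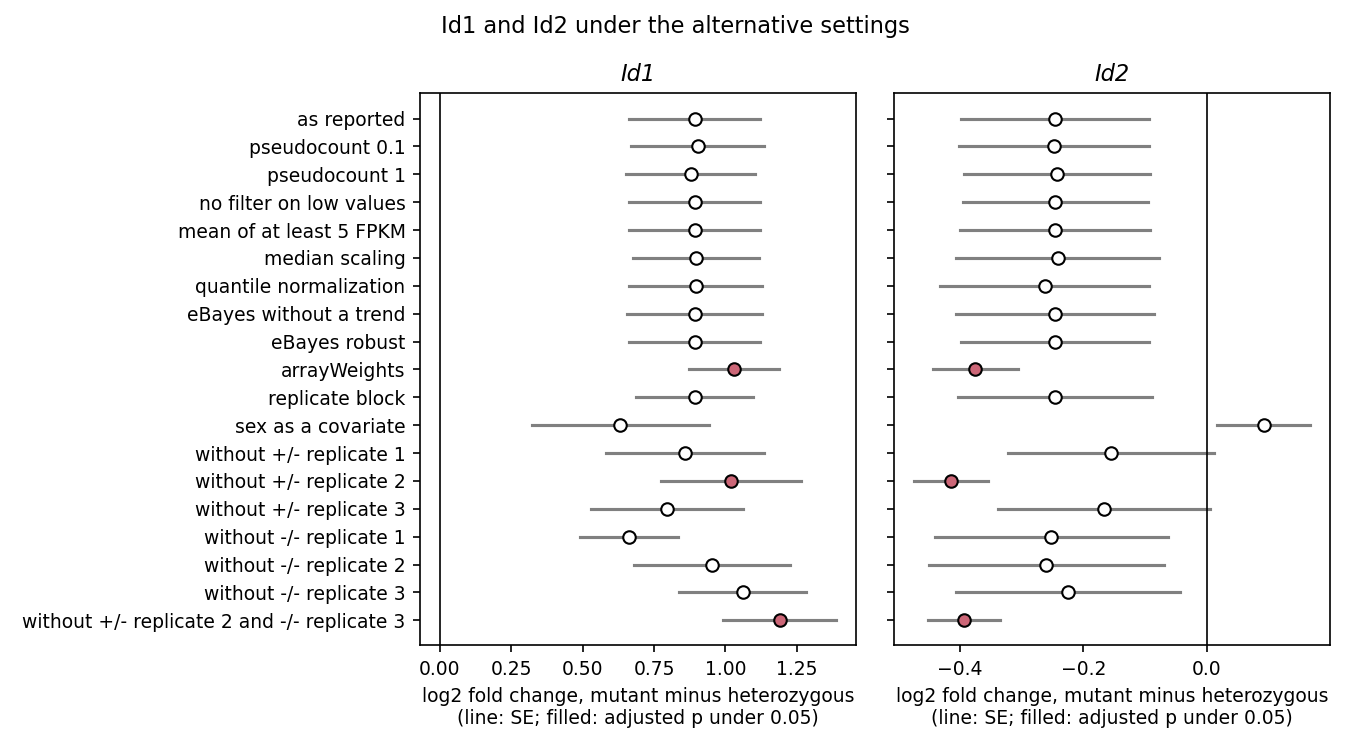
Log2 fold change (mutant minus heterozygous) of Id1 and Id2 as reported and under each of 18 alternative settings, with lines for the standard error and filled symbols where limma's adjusted p is under 0.05. Id1 stays between 0.63 and 1.19 with 3 filled symbols, and Id2 is negative in all settings but the fit with sex, where it is 0.09.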

How the data were processed

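Calvaria of P3 pups were kept in RNAlater, crushed frozen and extracted, rRNA was removed, and directional libraries were sequenced in paired ends. Per the labels and the methods of the study, reads were aligned with TopHat2 2.1.1 to NCBI build37.2 and quantified with Cufflinks 2.1.1 and Cuffdiff 2.1.1. For the annotation, the strand option and the scaling of libraries the setting is not given in the sources used here. In the deposited table the authors give FPKM, 1 column per pup, summing to 569846 to 611928 per library. Read counts per gene are not in that table, so precision rests on the spread between pups. The study gives an approximate read yield per sample, and the exact depth of each library is not given. The study tested with Cuffdiff, which needs reads. Here log2(FPKM + 0.5) was compared with limma 3.58.1 (R 4.3.3, eBayes with trend, no covariates) for 13535 entries with a symbol and a mean of at least 0.5 FPKM, and p was adjusted over all of them. A call is an adjusted p under 0.05. The procedure was tested on simulated data.

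The genes and lists were chosen with earlier results of these data known. The genes named are the 5 members, from each list up to 4 called genes in each direction by lowest adjusted p, a fixed set of bHLH, SMAD and target genes (Tcf3, Tcf4, Tcf12, Twist1, Hes1, Smad1, Smad5, Smad9, Smad4, Smad6, Smad7, Dlx3, Dlx5, Nog), and the 3 entries most like each member. Other genes named were chosen after their values were seen. Alternatives changed the pseudocount, filter, scaling, eBayes settings, library weights, replicate block, sex covariate and each library in turn.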

Additional observations from a re-analysis of the deposited data

How the results depend on the processing

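The 5 genes called numbered 2 (Id1 and Id2), in place of 0, with library weights (arrayWeights), without heterozygous replicate 2 and without that library and mutant replicate 3 together (the pair that stood apart), the last chosen after seeing the data. Id1 was then 1.03, 1.02 and 1.19 and Id2 −0.375, −0.415 and −0.394 on the log2 scale. In the fits without heterozygous replicate 2, genotype and sex cannot be told apart. Leaving out 1 library at a time gave 0.661 to 1.06 for Id1, −0.415 to −0.156 for Id2, −0.278 to 0.0752 for Id3 (−0.364 without the pair), −0.18 to 0.281 for Id4 and −0.021 to 0.372 for Atoh8, with 0 to 2 of the 5 called. Over the same settings Smad4 ran from −0.0183 to 0.27, Smad6 from −0.0226 to 0.334 (0.351 without the pair) and Smad7 from −0.209 to 0.156. The cause of these shifts was not tested.

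With sex as a covariate the sign turned for Id2 (0.092), Id3 (0.0837), Id4 (0.0236), Tcf3 (−0.0366), Smad4 (−0.208) and Smad7 (−0.279). Single libraries turned Id3 (0.0752 without mutant replicate 2), Id4 (0.0099 without heterozygous replicate 3, 0.281 without mutant replicate 2), Atoh8 (−0.021 without heterozygous replicate 2, −0.0127 without mutant replicate 1), Smad4 (−0.0183 without mutant replicate 3), Smad6 (−0.0226 without mutant replicate 1), Smad7 (−0.0404, −0.0839 and −0.209 without heterozygous replicate 1, heterozygous replicate 3 and mutant replicate 3, and −0.0644 without the pair that stood apart) and Twist1 (0.19, 0.1 and 0.029 without heterozygous replicate 2, mutant replicate 1 and mutant replicate 2, 0.0264 without the pair, and 0.0927 with library weights). None of these genes was called as reported.

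The whole table had 956 calls, against 621 with no filter on low values, 4744 with library weights, 30 with the replicate block, 51 to 2216 without 1 library and 3712 without the pair. The listed genes had 12 calls, against 7 with no filter, 41 with library weights, 0 with the replicate block, 0 to 22 without 1 library and 32 without the pair. Ratios between members that did not overlap numbered 1 to 6 without 1 library. The deviations of same-numbered pups from their group means had correlations of 0.0469, −0.230 and −0.138. With 3 pups per group, these cannot show whether the numbers name pairs. With the replicate block the log2 fold change of Id1 was 0.892 (limma adjusted p = 0.123). The number of 3 pups per group and the lack of read counts limit what could be detected at low levels.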
